A study of Pleurotus tuoliensis with 2 samples.

Results

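Starch and glycogen enzymes of the culinary mushroom *Pleurotus tuoliensis* were followed through the physiological maturation of its mycelium. They were taken as the unigenes, assembled transcripts each standing for one gene or a piece of one, whose FPKM averaged above 1 in the 6 libraries and whose best Swiss-Prot protein name contained amylase, glycogen, starch, glucan-branching, glucoamylase or alpha-glucosidase and did not contain kinase. This rule held 37 of the 16496 unigenes above that level and did not use the difference between the groups. FPKM are fragment numbers scaled for unigene length and library depth. Levels of different unigenes compare only roughly, as unigenes of one protein could differ widely. An example is DN7879_c3_g4 with a mean of 37.0 FPKM and DN7879_c3_g12 with 78.2 FPKM.

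The study sequenced RNA of mycelia of strain ACCC 50869 to ask which genes differ once the mycelium is ready to fruit. Mature mycelia were sampled at day 35 of a dark phase at 17 °C, and immature mycelia at day 0 of that phase, at the end of 37 days of dark growth at 25 °C on 820 g of substrate. Each group had 3 libraries of 1 bottle each, so the errors given here rest on separate cultures. Age of the culture, temperature and maturity changed together in this design and cannot be told apart.

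Glycogen is the branched glucose polymer that fungi and animals store inside the cell. Glycogenin primes a chain, glycogen synthase lengthens it with glucose from UDP-glucose, and the branching enzyme moves stretches of chain to new branch points. Phosphorylase and the debranching enzyme take the polymer apart again. Starch is the plant polymer of the same sugar and reaches the mushroom from outside, here from the wheat bran and corn flour of its substrate, where secreted amylases and glucoamylases cut it to maltose and glucose.

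By protein name, 6 of the 37 members belonged to glycogen synthesis, 7 to glycogen breakdown and 15 to starch breakdown. The other 9 carry the words of the rule but act on other substrates. Of these, 8 were matched to agn1 of *Schizosaccharomyces pombe*, an enzyme that cuts the alpha-1,3-glucan of the cell wall, and 1 was matched to the neutral alpha-glucosidase AB of mouse, which trims glucose from the glycans of new proteins in the endoplasmic reticulum. The name of the set is thus met by 28 of the members. Several unigenes can be pieces of one gene: the 37 members fell on 21 different proteins of the Nr database, namely 4 of glycogen synthesis, 2 of glycogen breakdown, 8 of starch breakdown, 6 cell wall glucanases and 1 trimming glucosidase. Whether a product is secreted was not measured.

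The matches come from far apart, with 16 species among the Swiss-Prot names, whereas 34 of the 37 Nr matches were proteins of the oyster mushroom *Pleurotus ostreatus*. The Nr names placed 30 members among the glycoside hydrolases and 7 among the glycosyltransferases. Glycoside hydrolase family 13 held 14 of them, namely amylases, alpha-glucosidases and the branching and debranching enzymes of glycogen. Family 15, that of the glucoamylases, held 6, and family 71 held the 8 agn1 matches. The GO terms starch binding, glycogen biosynthetic process and glycogen catabolic process were each carried in the table by members alone, at 7, 4 and 4 tested unigenes. Members were 203 to 4471 bases long with a median of 986 bases, against 887 bases for all unigenes tested, and 7 of them were shorter than 500 bases.

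As a set the members stood close to the rest of the transcriptome in level. Their median mean FPKM was 30.8, against 28.1 over all unigenes tested, and the highest mean was 145. At the limit of the rule, the lowest members were the agn1 match DN4113_c0_g1 (mean 1.76 FPKM) and the phosphorylase match DN5635_c0_g4 (2.02). Outside it lay another agn1 match, DN7134_c0_g2 (0.633), and an amylase-related match, DN2209_c0_g1 (0.270), so that 39 unigenes met the words of the rule at any level. DN5635_c0_g4 passed only through mature bottle 3.

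Differences are given as log2 ratios, mature minus immature, of FPKM + 1 with their standard error (SE) from limma. Benjamini-Hochberg adjusted p values are over all 16496 unigenes. Each SE is moderated, with the spread between bottles of a unigene drawn toward the trend over all unigenes tested. No member passed an adjusted p of 0.05 (0 of 37, lowest 0.177), where 0.0667% of all unigenes did. At the thresholds the study states, an unadjusted p up to 0.05 and a log2 ratio of 1 or more in either direction, 3 members were higher in mature mycelia, or 8.11% of them, against 1.18% of all unigenes, and 0 were lower, against 1.82%. All 3 had a name in the glycogen synthesis or starch breakdown class: DN6182_c0_g1 and DN4658_c0_g1, both matched to the branching enzyme, and DN6282_c0_g3, matched to a glucoamylase. The branching enzyme pair were matched to a single Nr protein, and with the unigenes of each Nr protein merged, 1 of 21 proteins was higher (4.76%), against 0.996% of all proteins and unmatched unigenes.

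With no limit on the size of the ratio, an unadjusted p up to 0.05 was met by 6 members higher in mature mycelia (16.2%, against 6.09% of all unigenes) and by 3 lower ones (8.11%, against 9.33%). The 3 mature bottles lay above the 3 immature bottles in 6 members (16.2%, against 8.69%) and below them in 5 (13.5%, against 14.2%). The 6 were pieces of 3 proteins: with unigenes merged, the groups did not overlap in 2 of 21 proteins with the mature bottles above (9.52%, against 8.65% of all merged proteins and unmatched unigenes) and in 3 with them below (14.3%, against 15.3%). These merged shares, and the shares of lower members, were near the background or under it. The median log2 ratio of the members was −0.01, with 18 positive and 19 negative, and that of all unigenes −0.07. It was 0.31 for glycogen synthesis, 0.45 for glycogen breakdown, −0.01 for starch breakdown and −0.09 for the agn1 matches. With unigenes of one protein merged it was 0.11 over the 4 proteins of glycogen synthesis and 0.16 over the 2 of glycogen breakdown, and without DN5635_c0_g4 the breakdown members had 0.35 in place of 0.45. An exact two-sided permutation test for one unigene, with 3 bottles a group, has 0.1 as its smallest p.

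**Figure D1:**
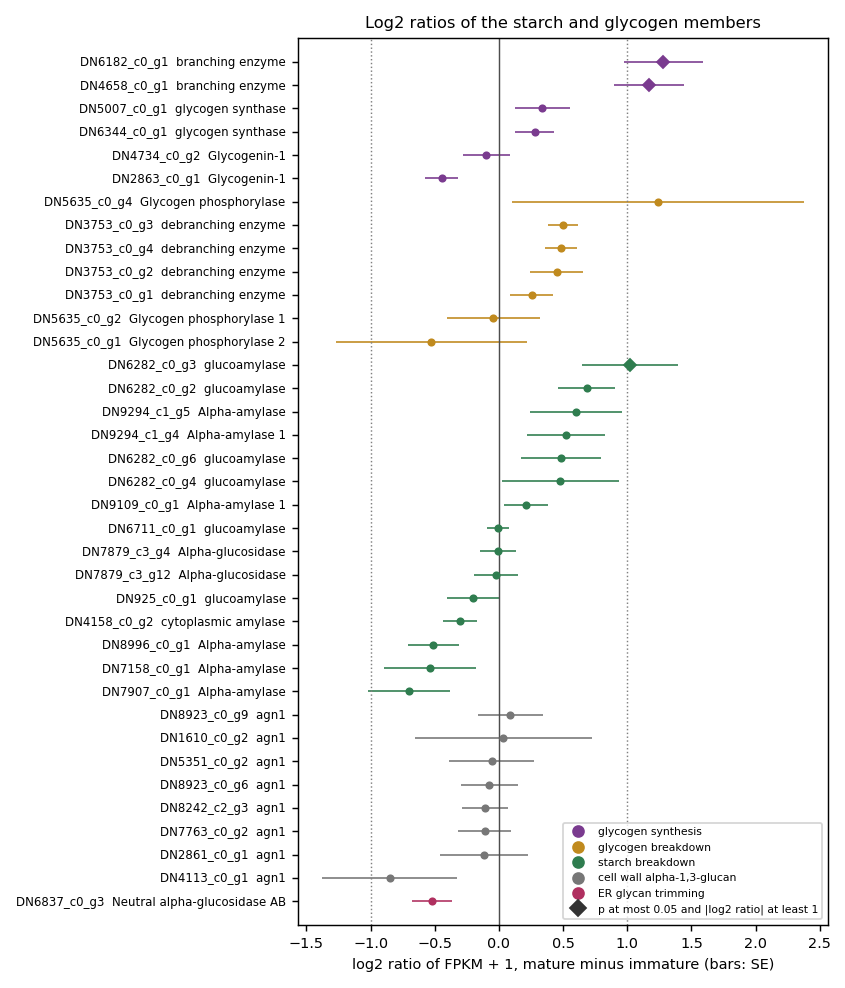
Log2 ratio (mature minus immature, FPKM + 1) of each of the 37 members, one row per unigene, grouped by class and coloured by class; bars are the SE and dotted lines mark ratios of −1 and 1. The 3 diamonds, 2 branching enzyme unigenes and 1 glucoamylase unigene, passed the study's thresholds, and the bar of DN5635_c0_g4 is wide because it was above 0 in 1 bottle alone.

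The branching enzyme, which makes the branch points of glycogen, had the highest ratios among the glycogen enzymes detected in every bottle. DN6182_c0_g1 (1475 bases, matched to the *Aspergillus oryzae* enzyme) had 94.8, 179 and 206 FPKM in mature bottles 1, 2 and 3, against 72.3, 51.8 and 63.2 FPKM in immature bottles 1, 2 and 3. DN4658_c0_g1 (740 bases, matched to the enzyme of *Candida glabrata*) had 74.7, 122 and 142 FPKM in the mature bottles, against 60.1, 42.9 and 42.8 FPKM in the immature ones. In both, all mature bottles lay above all immature bottles, with mature bottle 1 the lowest of its group and immature bottle 1 the highest of its own, so the gap between the groups was narrow and the step to mature bottles 2 and 3 was wide.

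DN6182_c0_g1 averaged 160 ± 58.0 FPKM in mature and 62.4 ± 10.3 FPKM in immature mycelia (SD, n = 3 each), a log2 ratio of 1.28 (SE 0.31, limma adjusted p = 0.183). DN4658_c0_g1 averaged 113 ± 34.8 FPKM in mature and 48.6 ± 9.96 FPKM in immature mycelia, with a ratio of 1.17 (SE 0.27, limma adjusted p = 0.177). Both are unigenes of the same *P. ostreatus* protein and count as 1 observation. Merged, weighted by length, they averaged 144 ± 50.2 FPKM in mature and 57.8 ± 9.78 FPKM in immature mycelia, a 2.50-fold difference in means. The merged log2 ratio was 1.25 (SE 0.29, limma adjusted p = 0.157). The ratio of DN6182_c0_g1 stayed past the study's thresholds with any one bottle left out (1.06 to 1.62), and that of DN4658_c0_g1 in 5 of 6 cases, dropping to 0.98 without mature bottle 3.

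Glycogen synthase, which adds the glucose units between the branches, was also represented by a pair of unigenes of one protein. DN6344_c0_g1 (1448 bases, matched to the *Neurospora crassa* enzyme) had 52.4, 66.6 and 73.3 FPKM in mature bottles 1 to 3, against 50.5, 57.7 and 48.6 FPKM in the immature ones. DN5007_c0_g1 (1042 bases) had 41.9, 69.6 and 66.4 FPKM in the mature bottles, against 41.7, 50.8 and 44.6 FPKM in the immature ones. In both unigenes mature bottles 2 and 3 lay above all immature bottles and mature bottle 1 lay among them. The log2 ratios were 0.28 (SE 0.15) and 0.34 (SE 0.21), and neither reached an unadjusted p of 0.05.

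The primer protein glycogenin, which attaches the first glucose units to itself, was matched by 2 members of different Nr proteins. DN2863_c0_g1 (1959 bases) had 18.1, 19.9 and 20.2 FPKM in mature bottles 1 to 3, against 30.6, 25.2 and 24.8 FPKM in the immature bottles. It was the one glycogen synthesis member whose mature bottles all lay below the immature ones, with a log2 ratio of −0.45 (SE 0.13, limma adjusted p = 0.215), short of the study's limit of −1. DN4734_c0_g2 (1870 bases) was the more abundant, at 57.5, 84.6 and 80.6 FPKM in the mature bottles, against 83.2, 67.6 and 86.1 FPKM in the immature ones. There the groups overlapped, and the log2 ratio was −0.10 (SE 0.18). The 3 further unigenes of that Nr protein, which have no Swiss-Prot name, had ratios from −0.30 to −0.02.

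Within glycogen synthesis, mature bottle 1 was the lowest of its group in 6 of 6 members, or 4 of 4 merged proteins. Over all unigenes it was the lowest in 30.9%. The step was small in DN2863_c0_g1, at 18.1 FPKM against 19.9 and 20.2 FPKM. In glycogen breakdown mature bottles 1 and 2 were each the lowest in 3 of 7 members (42.9%), against 30.9% and 34.1% of all unigenes. With unigenes merged, each was the lowest in 1 of 2 proteins. Merged phosphorylase had 82.4 FPKM in mature bottle 1, against 198 and 145 FPKM in mature bottles 2 and 3. In starch breakdown mature bottle 1 was the highest of its group in 10 of 15 members, against 45.3% of all unigenes. Immature bottle 1 was the highest of its own group in 10 of 15 as well, against 42.9%. With unigenes of one protein merged, each of these bottles was the highest of its group in 5 of 8 starch proteins (62.5%). Such shares were not computed over all merged proteins, so the merged counts by bottle have no background of their own. Without mature bottle 1 the median ratio of the glycogen synthesis members was 0.49 in place of 0.31. It was 0.23 without mature bottle 2 and 0.21 without mature bottle 3. Leaving out immature bottle 1, 2 or 3 gave 0.27, 0.38 and 0.28.

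**Figure D2:**
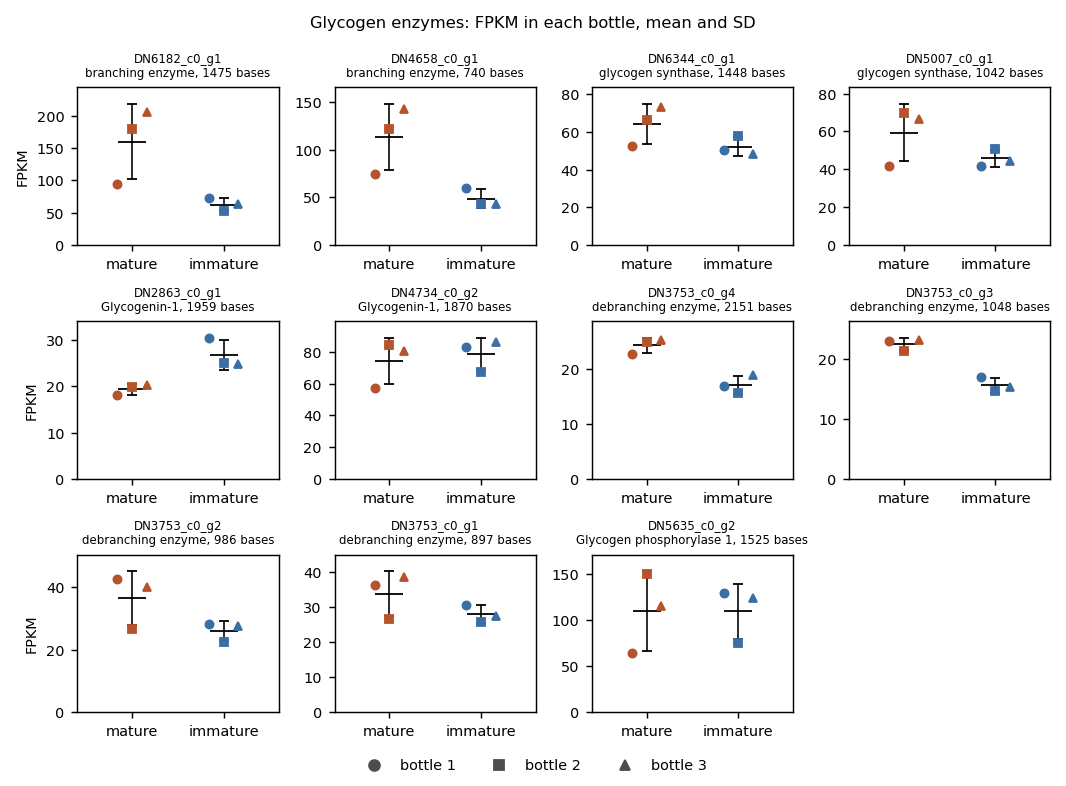
FPKM of the 11 glycogen members of at least 500 bases, one panel per unigene with its own axis from 0, mature bottles on the left and immature bottles on the right; symbols are the bottles, the long bar is the mean and the whiskers the SD (n = 3). Both branching enzyme unigenes are high in mature bottles 2 and 3, 2 of the 4 debranching enzyme unigenes and 1 glycogenin unigene have groups that do not overlap, and the phosphorylase groups overlap widely.

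Among the enzymes that take glycogen apart, the debranching enzyme, which removes the branch points that phosphorylase cannot pass, had 4 unigenes of one protein, all matched to the enzyme of *Saccharomyces cerevisiae*. DN3753_c0_g4 (2151 bases) had 22.8, 25.0 and 25.4 FPKM in mature bottles 1 to 3, against 17.0, 15.6 and 18.9 FPKM in the immature ones. DN3753_c0_g3 (1048 bases) had 23.1, 21.4 and 23.2 FPKM in the mature bottles, against 17.0, 14.6 and 15.4 FPKM in the immature ones. All mature bottles lay above all immature bottles in both, with little spread in either group.

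Their log2 ratios were 0.48 (SE 0.12, limma adjusted p = 0.190) and 0.50 (SE 0.12, adjusted p = 0.177), less than the study's limit of 1. DN3753_c0_g2 (986 bases) had 42.7, 26.6 and 39.9 FPKM in the mature bottles, against 28.0, 22.4 and 27.4 FPKM in the immature ones, a ratio of 0.45 (SE 0.21). DN3753_c0_g1 (897 bases) had 36.3, 26.6 and 38.4 FPKM in the mature bottles, against 30.6, 25.6 and 27.3 FPKM in the immature ones, a ratio of 0.26 (SE 0.17). In this pair mature bottle 2 fell among the immature bottles and the other mature bottles lay above them. The 4 merged as 1 protein averaged 28.0 ± 2.76 FPKM in mature and 20.4 ± 1.71 FPKM in immature mycelia (SD, n = 3 each), a log2 ratio of 0.43 (SE 0.12, limma adjusted p = 0.189) with no overlap.

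Phosphorylase, which frees glucose from the chain ends as glucose 1-phosphate, showed no such separation. Its longest member, DN5635_c0_g2 (1525 bases, matched to glycogen phosphorylase 1 of *Dictyostelium discoideum*), had 63.9, 150 and 116 FPKM in mature bottles 1 to 3, against 130, 75.5 and 124 FPKM in the immature ones. The bottles ranged as widely within each group as between them, and the log2 ratio was −0.04 (SE 0.36). With that error, a difference as large as the one in the debranching enzyme was not detectable for this unigene.

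A short phosphorylase unigene of 240 bases, DN5635_c0_g1, had 48.2, 332 and 57.2 FPKM in the mature bottles, against 107, 139 and 188 FPKM in the immature ones. Mature bottle 2 was the highest of all 6 and the other 2 mature bottles were the lowest. Its log2 ratio was −0.53 (SE 0.74), but −1.41 and past the study's thresholds for lower unigenes when mature bottle 2 was left out. The third, DN5635_c0_g4 (203 bases), had 12.1 FPKM in mature bottle 3 and 0 in the other 5 bottles. That value is the smallest one above 0 among unigenes of 203 bases in that library, so nothing can be read from its ratio.

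The same Nr protein also had 2 unigenes with other phosphorylase names that the rule did not take. DN7885_c0_g3 (929 bases) averaged 222 ± 74.0 FPKM in mature and 242 ± 79.6 FPKM in immature mycelia, and DN5635_c0_g3 (485 bases) averaged 146 ± 60.7 FPKM in mature and 159 ± 31.5 FPKM in immature mycelia. All 5 merged gave 142 ± 57.9 FPKM in mature and 149 ± 39.9 FPKM in immature mycelia, a log2 ratio of −0.12 (SE 0.36).

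Set against each other within a bottle, the merged branching enzyme stood at 1.84, 2.35 and 2.62 times the FPKM of glycogen synthase in mature bottles 1 to 3, against 1.46, 0.890 and 1.20 times in the immature ones. All mature bottles lay above all immature ones in this ratio. Over the debranching enzyme it stood at 3.03, 6.43 and 6.15 times in the mature bottles, against 3.17, 2.64 and 2.64 times in the immature ones, so that mature bottle 1 fell among the immature bottles. The ratio of synthase to phosphorylase was 0.582, 0.343 and 0.485 in the mature bottles, against 0.272, 0.533 and 0.273 in the immature ones, and overlapped. These ratios were formed after the levels were known and are given as descriptions.

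**Figure D3:**
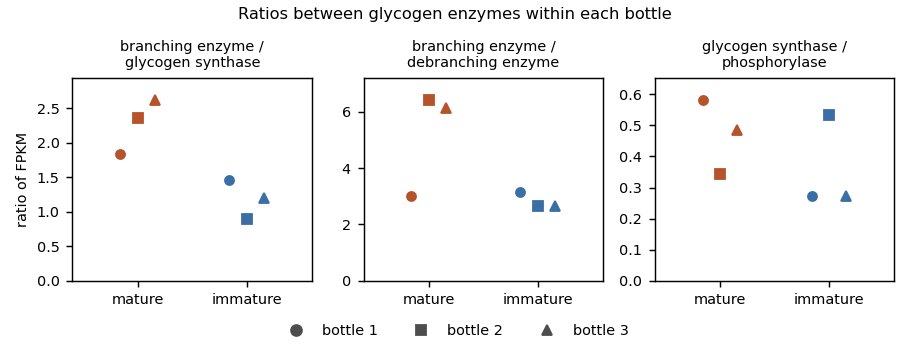
Ratios of FPKM between glycogen enzymes within each bottle, each enzyme taken as the length-weighted mean of all unigenes of its Nr protein; mature bottles are on the left and immature bottles on the right, and symbols are the bottles. The ratio of branching enzyme to synthase is 1.84 to 2.62 in mature and 0.890 to 1.46 in immature bottles, whereas the other 2 ratios overlap between the groups.

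In starch breakdown, the glucoamylases, which clip glucose from the chain ends of starch, fell on 2 proteins of glycoside hydrolase family 15, both named after an enzyme of *Schizophyllum commune*. The first had 4 unigenes and leaned to mature mycelia. DN6282_c0_g2 (2528 bases) had 22.8, 22.3 and 30.8 FPKM in mature bottles 1 to 3, against 19.7, 15.0 and 11.9 FPKM in the immature ones. DN6282_c0_g3 (349 bases) had 26.5, 24.8 and 37.0 FPKM in the mature bottles, against 24.0, 12.5 and 8.47 FPKM in the immature ones. In both, the mature bottles lay above the immature ones, with immature bottle 1 close below the lowest mature bottle.

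DN6282_c0_g3 had a log2 ratio of 1.02 (SE 0.37, limma adjusted p = 0.284) and was the one starch member past the study's thresholds. With 1 bottle left out its ratios ran from 0.70 to 1.41, and it kept that place only without immature bottle 1, not without any of the other 5. DN6282_c0_g2, the longest unigene of that protein, had a ratio of 0.68 (SE 0.22, adjusted p = 0.250) and did not pass. The other pair, DN6282_c0_g6 and DN6282_c0_g4, had ratios of 0.48 each and overlapped between the groups. Merged, the protein averaged 28.4 ± 4.75 FPKM in mature and 18.1 ± 5.60 FPKM in immature mycelia (SD, n = 3 each), a log2 ratio of 0.65 (SE 0.24, limma adjusted p = 0.263), and its groups overlapped.

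The other glucoamylase protein was more abundant and had close levels in both groups. DN6711_c0_g1 (1673 bases) had 88.3, 80.0 and 78.9 FPKM in mature bottles 1 to 3, against 80.5, 83.0 and 84.7 FPKM in the immature ones, a log2 ratio of −0.01 (SE 0.09). It had the smallest spread between bottles of all members, with a residual SD of 0.07 on the log2 scale, against a median of 0.29 for the members. Its short companion DN925_c0_g1 (404 bases) averaged 90.3 ± 17.4 FPKM in mature and 104 ± 22.6 FPKM in immature mycelia.

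Alpha-amylases, which cut starch chains internally, lay on both sides of 0. The highest ratios were those of 2 unigenes of one protein. DN9294_c1_g5 (1258 bases, matched to an *Aspergillus shirousami* amylase) had 99.4, 89.0 and 94.3 FPKM in mature bottles 1 to 3, against 35.7, 101 and 65.4 FPKM in the immature ones. DN9294_c1_g4 (1424 bases) had 48.0, 53.4 and 55.2 FPKM in the mature bottles, against 23.4, 56.3 and 35.4 FPKM in the immature ones. The mature bottles were close together in both, while immature bottle 1 was low and immature bottle 2 higher than any mature bottle. The log2 ratios were 0.60 (SE 0.36) and 0.52 (SE 0.30).

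DN9109_c0_g1, the longest member at 4471 bases, had 32.1, 22.2 and 21.8 FPKM in the mature bottles, against 20.4, 22.7 and 21.3 FPKM in the immature ones. Mature bottle 1 alone stood out, and the ratio was 0.21 (SE 0.17).

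Other amylase unigenes were lower in mature mycelia without passing the thresholds. DN8996_c0_g1 (3138 bases, matched to an amylase of *Streptomyces violaceus*) had 7.74, 7.67 and 7.62 FPKM in mature bottles 1 to 3, against 14.7, 9.30 and 10.7 FPKM in the immature ones. Its mature bottles were almost level and all below the immature ones, with a log2 ratio of −0.51 (SE 0.20, limma adjusted p = 0.308). Its Nr match is a glycoside hydrolase of *Trametes versicolor* without a family number, so the amylase name rests on the bacterial match alone.

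DN4158_c0_g2 (751 bases, matched to the cytoplasmic amylase of *Escherichia coli*) had 39.5, 37.7 and 35.6 FPKM in the mature bottles, against 55.1, 44.4 and 41.3 FPKM in the immature ones. Here too the groups did not overlap, and the log2 ratio was −0.30 (SE 0.13). A longer unigene of the same Nr protein outside the rule, DN7436_c0_g1 (1391 bases, named maltohexaosidase), had a ratio of −0.02 (SE 0.13), and the protein as a whole had one of −0.07 (SE 0.12). The difference between these 2 unigenes was not tested.

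The least abundant amylase protein had 2 unigenes. DN7907_c0_g1 (1179 bases) had 4.47, 2.36 and 3.79 FPKM in the mature bottles, against 8.54, 6.10 and 4.56 FPKM in the immature ones, and its groups did not overlap, by a narrow margin. DN7158_c0_g1 (841 bases) had 7.01, 3.26 and 2.44 FPKM in the mature bottles, against 6.73, 6.13 and 5.56 FPKM in the immature ones, with mature bottle 1 the highest of all. The log2 ratios were −0.70 (SE 0.32) and −0.54 (SE 0.36), on a scale where the added 1 shrinks differences at such levels. Neither reached an unadjusted p of 0.05.

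The alpha-glucosidase unigenes, which split maltose and short glucose chains, did not differ between the groups beyond their spread. DN7879_c3_g4 (1269 bases, matched to the enzyme of *S. pombe*) had 43.0, 31.7 and 36.2 FPKM in mature bottles 1 to 3, against 39.5, 33.7 and 37.9 FPKM in the immature ones. DN7879_c3_g12 (683 bases) had 88.8, 71.0 and 72.2 FPKM in the mature bottles, against 89.1, 62.8 and 85.1 FPKM in the immature ones. Bottle 1 was the highest of each group in both unigenes, and the ratios were −0.01 (SE 0.14) and −0.02 (SE 0.17).

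**Figure D4:**
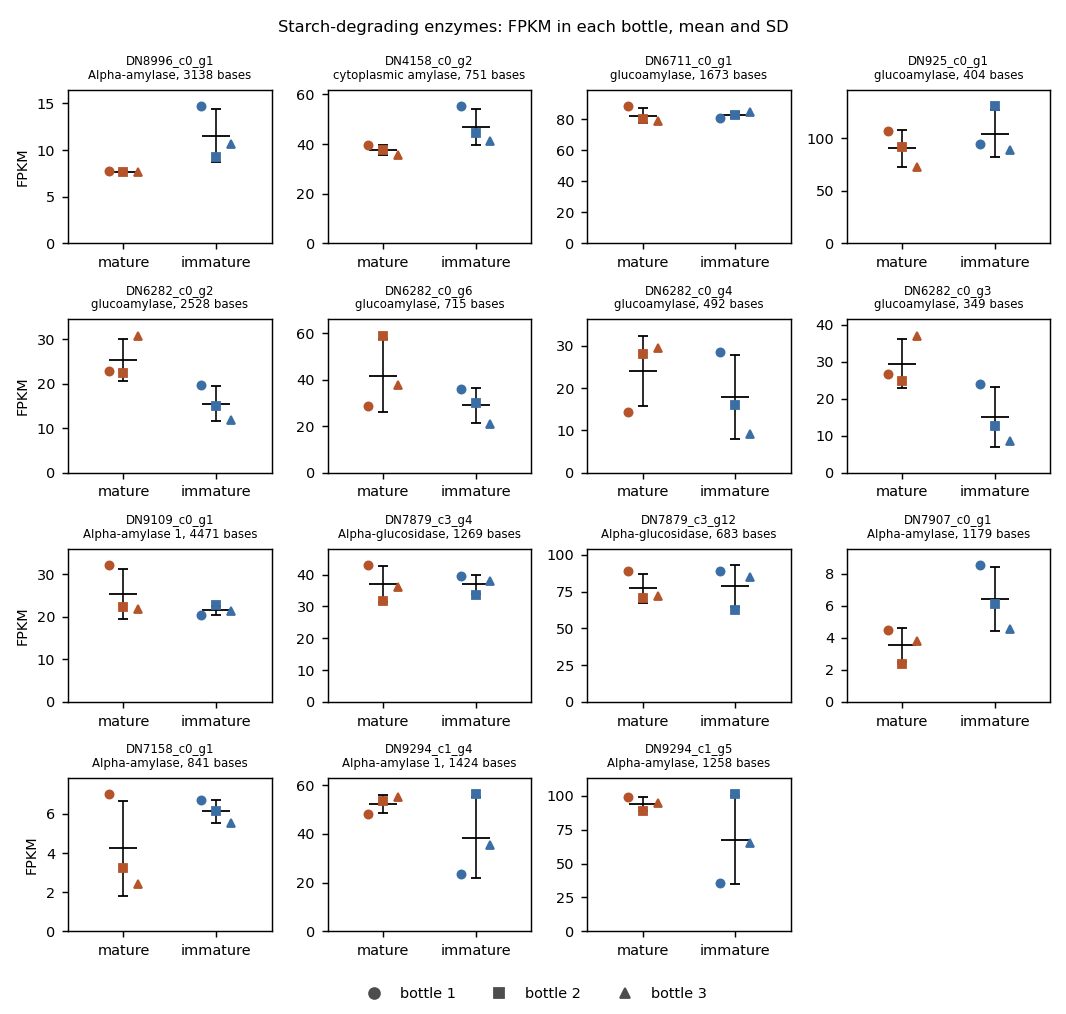
FPKM of the 15 starch breakdown members, one panel per unigene with its own axis from 0, mature bottles on the left and immature bottles on the right; symbols are the bottles, the long bar is the mean and the whiskers the SD (n = 3). The mature bottles lie above the immature ones in DN6282_c0_g2 and DN6282_c0_g3 and below them in DN8996_c0_g1, DN4158_c0_g2 and DN7907_c0_g1, and the 2 groups overlap in the other 10. Over all unigenes the mature bottles lie above in 8.69% and below in 14.2%. With unigenes of one protein merged, only the protein of DN8996_c0_g1 has groups that do not overlap.

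The members that act on other substrates held no unigene past the study's thresholds. The trimming glucosidase DN6837_c0_g3 (792 bases) had 40.7, 48.6 and 34.7 FPKM in mature bottles 1 to 3, against 52.0, 63.0 and 63.5 FPKM in the immature ones. Its mature bottles all lay below the immature ones, with a log2 ratio of −0.52 (SE 0.16, limma adjusted p = 0.225). The longer unigene of the same Nr protein, DN6837_c0_g1 (2418 bases, named glucosidase 2 subunit alpha and outside the rule), had 34.1, 38.9 and 34.1 FPKM in the mature bottles, against 53.9, 52.1 and 51.2 FPKM in the immature ones. It had the same direction and no overlap either, with a ratio of −0.54 (SE 0.10, limma adjusted p = 0.127).

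The 8 agn1 matches had log2 ratios from −0.85 to 0.09, and their groups overlapped in every one. The highest level and the widest spread were those of DN1610_c0_g2 (451 bases), with 21.3, 88.3 and 121 FPKM in the mature bottles, against 86.1, 35.4 and 70.6 FPKM in the immature ones. Mature bottle 1 was the lowest of all and mature bottles 2 and 3 were the highest, and the ratio was 0.03 (SE 0.69). Outside the rule, 2 short unigenes of its Nr protein had ratios of 0.97 (SE 0.51, DN1610_c0_g1) and 0.78 (SE 0.61, DN3517_c0_g1), and the merged protein had one of 0.21 (SE 0.63). DN8242_c2_g3, the longest at 3896 bases, averaged 27.7 ± 5.48 FPKM in mature and 29.7 ± 3.31 FPKM in immature mycelia, and DN7763_c0_g2 averaged 14.9 ± 2.13 FPKM in mature and 16.4 ± 3.48 FPKM in immature mycelia. DN2861_c0_g1 had a mean of 6.76 FPKM over all bottles, and the remaining 4 had means of 1.76 to 4.46 FPKM.

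The enzymes that feed glucose into glycogen or regulate its enzymes were taken from a separate list of names. Of its 15 tested unigenes, 0 passed the study's thresholds, where 1.18% of all unigenes were higher and 1.82% lower. An unadjusted limma p of 0.05 was reached by 3 of the 15 as higher in mature mycelia, against 6.09% of all unigenes. It was reached by 0 of the 15 as lower, against 9.33%. The mature bottles all lay above the immature ones in 2 of the 15, against 8.69% of all unigenes. They all lay below them in 1, against 14.2%. The median log2 ratio of the 15 was 0.14. The more abundant of 2 phosphoglucomutase unigenes, which make glucose 1-phosphate, had 138, 114 and 124 FPKM in mature bottles 1 to 3, against 108, 101 and 95.1 FPKM in the immature ones (DN10262_c0_g1). The groups did not overlap, and the log2 ratio was 0.31 (SE 0.11, limma adjusted p = 0.273). The other, DN8021_c0_g1, had a ratio of −0.10 (SE 0.16), and its groups overlapped.

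The most abundant of them was DN7643_c0_g4, matched to the uridylyltransferase that makes UDP-glucose, with 397, 387 and 431 FPKM in mature bottles 1 to 3, against 260, 402 and 366 FPKM in the immature ones. Immature bottle 1 was the lowest, as it was in the DN9294 amylases, and the log2 ratio was 0.26 (SE 0.18). A second unigene of the same protein, DN7643_c0_g2, had 111 FPKM in immature bottle 1 and 260 to 337 FPKM in the other 5.

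The other 2 with a low unadjusted p belong to the SNF1 kinase system, which in yeast acts when glucose runs short and promotes glycogen storage. DN8628_c0_g5, matched to the SNF1-type kinase of *C. glabrata*, had 50.7, 46.3 and 47.1 FPKM in mature bottles 1 to 3, against 36.1, 42.6 and 36.0 FPKM in the immature ones, with a ratio of 0.32 (SE 0.11, limma adjusted p = 0.256). DN1102_c0_g1 (461 bases), matched to the SNF1-activating kinase of yeast, had 8.83, 17.1 and 15.6 FPKM in the mature bottles, against 5.88, 4.73 and 8.87 FPKM in the immature ones, with a ratio of 0.97 (SE 0.32, adjusted p = 0.253). All mature bottles lay above the immature ones in the first, and mature bottle 1 fell just under immature bottle 3 in the second. A longer match to the same yeast protein, DN3709_c0_g3, had a ratio of 0.09 (SE 0.30).

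Hexokinase, the entry of glucose into metabolism, averaged 136 ± 4.72 FPKM in mature and 145 ± 12.5 FPKM in immature mycelia at DN7650_c0_g1, a log2 ratio of −0.09 (SE 0.10). A second unigene of that protein, DN7650_c0_g2, had a ratio of −0.25 (SE 0.12), and a hexokinase of another Nr protein, DN8589_c0_g2, had one of 0.27 (SE 0.13), neither at an unadjusted p of 0.05. Glucose-6-phosphate isomerase, which exchanges glucose 6-phosphate with the glycolytic fructose 6-phosphate, had a ratio of −0.11 (SE 0.10, DN6326_c0_g1). Protein phosphatase PP1, which in yeast and animals turns glycogen synthase on, had one of 0.14 (SE 0.09, DN1578_c0_g1), and a match to its glycogen-targeting subunit had one of −0.22 (SE 0.15, DN8927_c0_g1). The PP1 unigene DN6812_c0_g2 was the one whose mature bottles all lay below the immature ones, with a ratio of −0.13 (SE 0.09).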

How the data were processed

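RNA-seq libraries of 3 mature and 3 immature bottles were analysed. According to the methods, the authors trimmed reads with cutadapt, assembled them de novo with Trinity, took for each unigene the longest of its isoforms and estimated abundance with RSEM. The deposited values are FPKM with 2 decimals, whose sums were 1206304 to 1238506 per library. The table holds no fragment counts, so the study's count-based test was replaced.

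Log2(FPKM + 1) was compared with limma 3.58.1 in R 4.3.3 (two-sided, no covariates; lmFit, then eBayes with a mean-variance trend and no robust option) for the 16496 of 17030 unigenes with a mean FPKM above 1, with Benjamini-Hochberg adjustment over all of them. The method was tested on simulated data. Classes and the pathway list were sets of words in Swiss-Prot names. Unigenes of one Nr protein were merged as length-weighted means. Members were named if past a threshold or at a mean FPKM of at least 5, with all glycogen members of at least 500 bases, the paper's named ones, and per word of the pathway list the most abundant unigene and those past the thresholds; DN7907_c0_g1, DN4113_c0_g1, DN5635_c0_g4, the unigenes outside the rule and the further pathway unigenes were named after their values were seen. The members and lists were chosen with earlier results of these data known. Alternatives were other pseudocounts (0.1 and 5), filters, scalings and priors, a replicate block, at least 500 bases, merged proteins and each bottle left out. Figures used Python 3.11.15 and matplotlib 3.10.9.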

Additional observations from a re-analysis of the deposited data

How the results depend on the processing

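No member passed an adjusted p of 0.05 with limma under any alternative run (0 in each), although over all unigenes this count ran from 0 to 101, against 11, the highest being that with unigenes of at least 500 bases alone. The 3 members past the study's thresholds were 1 with unigenes of one Nr protein merged, where the branching enzyme pair became 1 protein and the glucoamylase protein of DN6282_c0_g3 had a ratio of 0.65, and 1 to 3 with single bottles left out, the 1 without mature bottle 3. The count of lower members, 0, ranged from 0 to 1 with single bottles left out, the 1 being DN5635_c0_g1 without mature bottle 2. DN6282_c0_g3 was the member lost with a pseudocount of 5 (0.84), with values scaled to a common sum (0.99) and under the replicate block. Pathway unigenes past the thresholds, 0, became 1 (DN1102_c0_g1) with a pseudocount of 0.1 and with quantile normalization, and 0 to 1 with single bottles left out (1 without mature bottle 1 and 1 without immature bottle 3); the cause was not tested. The median of glycogen breakdown was 0.16 without mature bottle 3 and 0.16 with merged proteins, that of glycogen synthesis was 0.11 with merged proteins, and that of the 28 starch and glycogen members, 0.27, was −0.03 with merged proteins. Quantile normalization moved the median of all unigenes from −0.07 to 0.00 and their calls from 195 higher and 301 lower to 247 and 228, leaving the members at 3 and 0. The bottle numbers did not pair the libraries (correlations of deviations −0.09, −0.04 and −0.01), and a replicate block left 2 members higher. FPKM carry no fragment counts, and 7 members were shorter than 500 bases.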
